A study of Mus musculus with 4 samples.

Results

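The genes described here encode insulin-like growth factors (IGFs), their signalling receptor and their binding proteins. The 9 members are Igf1, Igf2, Igf1r, Igfbp2, Igfbp3, Igfbp4, Igfbp5, Igfbp6 and Igfbp7, taken by gene symbol out of 23284 rows per file. All 9 have a row for each of the 4 libraries, but Igfbp2 was listed at 0 FPKM in both libraries labelled as knockouts. They were chosen by symbol with their FPKM in these same 4 libraries known, so the measured FPKM of every library count as used, and each value below is a description and none is a test. RNA was sequenced from podoplanin-positive stromal cells of whole mouse colon, sorted as living cells without the surface proteins CD45, CD31 and EpCAM. The groups were a C57BL/6J library labelled IL-10 KO, a C57BL/6J wild-type library, a BALB/c library labelled Rag2 KO and a BALB/c wild-type library. IL-10 is a cytokine that restrains inflammation, and Rag2 is needed for T and B cells to mature. Each group has 1 library. The labels give no age, no knockout allele and no number of animals behind a library, and no value has a replicate error.

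IGF-I and IGF-II are small secreted proteins related to insulin. They signal through a receptor tyrosine kinase, the product of Igf1r, which promotes growth and survival of many cell types, and in the gut much of the local supply comes from mesenchymal cells. Outside cells most IGF is held by binding proteins, which can keep it from the receptor, carry it or bind matrix, and proteases that cut a binding protein free its IGF.

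Igfbp3 was lower in both libraries labelled as knockouts, Igfbp4 and Igf1 were higher in both, and Igfbp5 was much higher in the library labelled Rag2 KO than in any other. Igfbp7 had nearly the same level everywhere. Igf1r and Igfbp6 stayed within 2-fold in every comparison.

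The promoters of the 4 genes with the widest ranges over the libraries are shown first, because these genes carry most of the differences. Each sequence is the 200 bases before a transcription start that RefSeq lists on GRCm38.p6, the assembly also called mm10. It is read 5′ to 3′ on the strand of the gene. The windows of Igfbp3, Igfbp4 and Igf1 lie inside the RefSeq gene spans given further on, which begin further upstream than these starts. Capitals mark matches to 5 short motifs on either strand.
Igfbp3, chr11:7213924-7214123, minus strand: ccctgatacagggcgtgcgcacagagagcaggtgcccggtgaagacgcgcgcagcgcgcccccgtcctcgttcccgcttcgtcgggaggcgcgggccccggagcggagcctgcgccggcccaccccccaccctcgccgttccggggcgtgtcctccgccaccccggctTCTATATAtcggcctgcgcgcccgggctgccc
Igfbp4, chr11:99041044-99041243, plus strand: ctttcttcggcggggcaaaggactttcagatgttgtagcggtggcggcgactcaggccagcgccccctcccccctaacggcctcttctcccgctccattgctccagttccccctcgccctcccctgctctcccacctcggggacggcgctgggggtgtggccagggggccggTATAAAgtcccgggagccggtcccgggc
Igfbp5, chr1:72874866-72875065, minus strand: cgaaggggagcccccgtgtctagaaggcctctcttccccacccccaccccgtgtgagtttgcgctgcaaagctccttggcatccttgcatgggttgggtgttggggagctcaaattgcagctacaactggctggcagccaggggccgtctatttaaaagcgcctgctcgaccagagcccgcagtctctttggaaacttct
Igf1, chr10:87860911-87861110, plus strand: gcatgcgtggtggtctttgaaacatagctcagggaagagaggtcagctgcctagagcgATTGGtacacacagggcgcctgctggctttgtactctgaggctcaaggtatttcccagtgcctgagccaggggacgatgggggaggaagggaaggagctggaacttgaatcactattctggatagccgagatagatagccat

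The motifs were chosen with these sequences in view. The core of a TATA box was searched as TATANA. The others were the CCAAT box, the GC box, read as GGGCGG, the interferon-stimulated response element core, and the gamma-activated site of STAT proteins, read as TTCNNNGAA. The TATA core was present in the windows of Igfbp3 and Igfbp4, beginning 30 and 28 bases before the start on the strand of the gene, and it was present in 18.2% of the 32851 promoter windows of this length. The capital letters in the Igf1 window are CCAAT on the opposite strand, a motif found in 29.3% of all windows. The promoter set used here holds 13 promoters for the 9 members, and other starts were not searched. Among the 13, the window of Igfbp6, a member within 2-fold in every comparison, also held the TATA core and the CCAAT box. The GC box, present in 31.0% of all windows, was matched in 5 of the 13, which belong to Igf1r, Igf2, Igfbp2 and Igfbp7. Neither the interferon element, present in 2.27% of all windows, nor the STAT site, present in 5.49%, was matched in any of the 13. The window of Igfbp5 matched none of the 5 as written, and looser forms of the motifs were not searched. The windows of Igfbp3 and Igfbp4 had 76.0% and 69.5% G and C, against 59.0% for Igfbp5 and 54.0% for Igf1.

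Levels are given as the authors deposited them, in FPKM, which are fragments scaled to transcript length and to library size, and a log2 ratio is the difference in log2 of FPKM plus 1 between a pair of libraries. Genes with at least 1 FPKM in either library of a pair were compared, and a ratio of at least 1 in either direction is called 2-fold. The steps between low FPKM values put the depth at between about 8420000 and 9940000 fragments per library. At the lowest of these depths, 3 fragments of a transcript of 2000 nt correspond to 0.199 FPKM. Il10 itself had 129.9 FPKM in the library labelled IL-10 KO, against 3.33 FPKM in C57BL/6J wild type, so whole-gene FPKM go against that label or do not show the deleted part. Rag2 was listed at 0.712 FPKM in the library labelled Rag2 KO and at 0 in the other 3, and gives no check either, whereas the antibody joining chain gene Igj was at 1.36 FPKM there, against 428 FPKM in BALB/c wild type. Xist, which coats the silenced X chromosome, was at 44.9 FPKM in the library labelled IL-10 KO, against 23.0 FPKM in C57BL/6J wild type, and Y-linked Ddx3y was at 0.0269 FPKM, against 16.9 FPKM, in the same pair. C57BL/6J wild type thus held both kinds of transcript, and sex, genotype and animal cannot be told apart in its comparison. In BALB/c Xist was at 0.105 FPKM in the library labelled Rag2 KO, against 0.0509 FPKM in wild type, and Ddx3y at 31.5 FPKM, against 36.3 FPKM. Sex and strain can therefore not be told apart either where the strains are compared.

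All 9 fibroblast markers were present in every library, with sums between 11403 and 13095 FPKM. Pdpn, the gene of the sort marker podoplanin, had between 158 and 293 FPKM. Transcripts of cells that the sort leaves out were also present, as Ptprc, the gene of CD45, had 43.1 FPKM in the library labelled IL-10 KO, against 3.34 FPKM in C57BL/6J wild type. In BALB/c it had 11.5 FPKM in the library labelled Rag2 KO, against 8.31 FPKM in wild type. In bulk RNA, fewer cells of a type and less RNA per cell cannot be told apart.

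Levels of the 9 genes ran from none detected to the most abundant transcripts. Igfbp7 stood at rank 17 of 22513 rows without small RNAs in the library labelled IL-10 KO, against rank 12 in C57BL/6J wild type, and at rank 12 in the library labelled Rag2 KO, against rank 11 in BALB/c wild type. In both wild types the order of FPKM, which are per length, was Igfbp7, Igfbp3, Igfbp4, Igfbp6 and Igfbp5, followed far below by the ligands and the receptor. For the library labelled IL-10 KO it was Igfbp7, Igfbp4, Igfbp6, Igfbp5 and Igfbp3. For the library labelled Rag2 KO it was Igfbp7, Igfbp4, Igfbp5, Igfbp3 and Igfbp6. Without replicates there is no spread against which neighbours in these orders could be set.

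**Figure D1:**
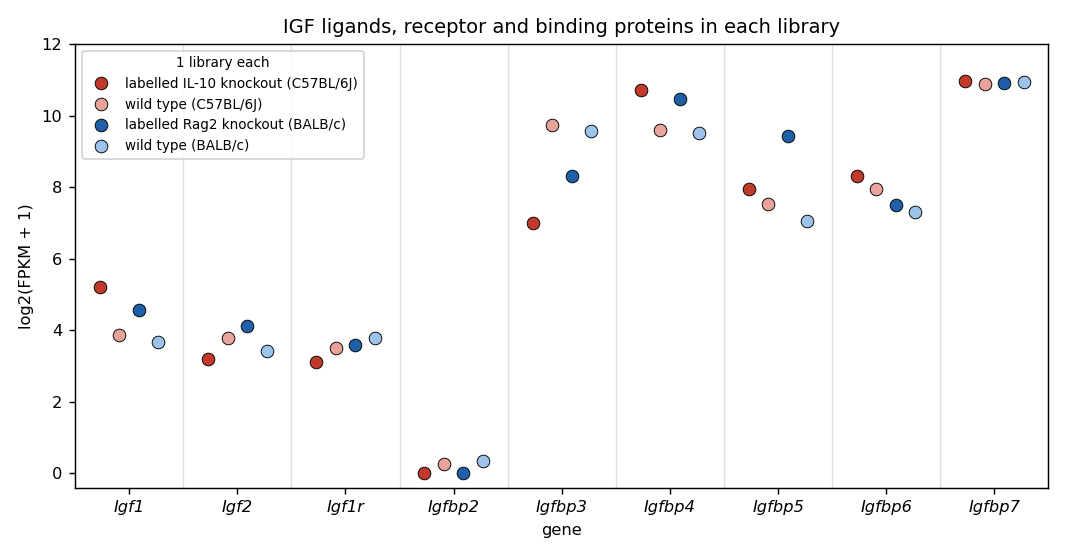
Level of each IGF gene (x axis) as log2 of FPKM plus 1 (y axis), with 1 point per library. Igfbp7 sits just under 11 in all 4 libraries, Igfbp2 is at or near 0, and the Igfbp3 points of both libraries labelled as knockouts lie below both wild types.

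Igf1 encodes IGF-I, the ligand made under growth hormone in the liver and locally by mesenchymal cells and macrophages. It had 36.2 FPKM in the library labelled IL-10 KO, against 13.5 FPKM in C57BL/6J wild type. In BALB/c it had 22.7 FPKM in the library labelled Rag2 KO, against 11.8 FPKM in wild type. Both libraries labelled as knockouts were thus above both wild types, and the wild types were close to each other. The log2 ratio was 1.36 for IL-10 and 0.89 for Rag2, and the second is under 2-fold. The counting error of the ratios depends on which transcript is counted. The 95% interval of the first is 0.46 on either side with the shortest RefSeq-linked transcript of Igf1 (651 nt) and 0.12 with the longest (7052 nt), and for the second it is 0.49 and 0.12. An antisense gene, Igf1os, overlaps Igf1. The protocols name a stranded kit but no strand setting is stated, so whether reads of both were kept apart is not known.

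Markers of macrophages, which also express Igf1, were higher in the library labelled IL-10 KO, but only some were in the library labelled Rag2 KO. Of the 11 macrophage and monocyte markers listed 10 were found, and of these 9 were at least 2-fold higher and 0 lower in the library labelled IL-10 KO, with a sum of 1235 FPKM against 174 FPKM in C57BL/6J wild type. In the library labelled Rag2 KO 4 were higher and 0 lower, with a sum of 639 FPKM against 313 FPKM in BALB/c wild type. The 4 were Lyz2, Cd14, Itgam and Fcgr1. Lyz2 had 296 FPKM against 135 FPKM in that pair, and Cd14 had 128 FPKM against 31.7 FPKM. The rest had log2 ratios between -0.08 (Cd68) and 0.70 (C1qa). None of the 10 was at 0 in any library. All 8 pan-haematopoietic markers were higher in the library labelled IL-10 KO (summed FPKM 891 against 81.7), and 1 of 8 in the library labelled Rag2 KO (269 against 156). Of all genes compared, 10.1% were at least 2-fold higher in the library labelled IL-10 KO and 4.42% in the library labelled Rag2 KO. Neutrophil markers summed to 3834 FPKM in the library labelled IL-10 KO, against 9.42 FPKM in C57BL/6J wild type, and to 242 FPKM in the library labelled Rag2 KO, against 23.4 FPKM in BALB/c wild type, with Cxcr2 or Ngp at 0 in the wild types. Their part in the Igf1 values was not tested.

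Igf2 encodes IGF-II, the ligand of fetal growth, which is expressed from the paternal allele in most mouse tissues. It had 8.13 FPKM in the library labelled IL-10 KO, against 12.8 FPKM in C57BL/6J wild type (log2 ratio -0.59). It had 16.3 FPKM in the library labelled Rag2 KO, against 9.73 FPKM in BALB/c wild type (log2 ratio 0.69). The libraries labelled as knockouts were thus the lowest and the highest of the 4, and neither ratio reached 2-fold. Counting error is 0.65 on either side for IL-10 and 0.55 for Rag2 with the shortest transcript (650 nt), and 0.20 and 0.17 with the longest (4722 nt). An antisense gene and Gm49394 overlap Igf2. Without a stated strand setting it is not known whether reads of the antisense gene and of Igf2 were kept apart. The antisense row, Igf2as, was listed between 0.0260 and 0.113 FPKM. The microRNA gene Mir483 inside Igf2 was listed at 0 in all 4 libraries.

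Taken as a sum, the ligands had 44.3 FPKM in the library labelled IL-10 KO, against 26.2 FPKM in C57BL/6J wild type. They had 38.9 FPKM in the library labelled Rag2 KO, against 21.5 FPKM in BALB/c wild type. Igf1 made up 81.6% of that sum in the library labelled IL-10 KO, against 51.3% in C57BL/6J wild type. Within BALB/c it made up 58.2% in the library labelled Rag2 KO, against 54.8% in BALB/c wild type. Igf2 was lower in the library labelled IL-10 KO, so the larger sum there was Igf1 alone, whereas in BALB/c both ligands were higher.

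Igf1r encodes the receptor tyrosine kinase that transmits the signal of both ligands. It had 7.73 FPKM in the library labelled IL-10 KO, against 10.3 FPKM in C57BL/6J wild type. For BALB/c the values were 10.9 FPKM in the library labelled Rag2 KO, against 12.9 FPKM in BALB/c wild type. The log2 ratios of -0.37 and -0.22 are beyond counting error, which is 0.14 and 0.11 on either side, but BALB/c wild type also stood 0.30 above C57BL/6J wild type. Set against C57BL/6J wild type, the Rag2 ratio was 0.08, so its direction depends on the wild type used. The receptor gene was thus within 2-fold in all 3 comparisons.

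Igfbp3 encodes the main carrier of IGF in blood, which local cells also secrete. It had 127 FPKM in the library labelled IL-10 KO, against 850.2 FPKM in C57BL/6J wild type. It had 314 FPKM in the library labelled Rag2 KO, against 754 FPKM in BALB/c wild type. Both libraries labelled as knockouts lay below both wild types, and the log2 ratio of BALB/c wild type over C57BL/6J wild type was -0.17. The log2 ratio was -2.73 in the IL-10 comparison, rank 28 from the lowest of 12790 genes compared, with a counting interval of 0.062 on either side. In the Rag2 comparison it was -1.26, rank 117 from the lowest of 12336 genes, with an interval of 0.041. Igfbp3 was at rank 499 by level in the library labelled IL-10 KO, against rank 58 in C57BL/6J wild type.

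The 3 genes with profiles most like that of Igfbp3 over the 4 libraries, out of 8830 genes with an established symbol and at least 5 FPKM in some library, were Ednrb, Bmp5 and Lin7a. Likeness was the Euclidean distance between log2 profiles centred on their own means, and these distances were 0.15, 0.34 and 0.37. Ednrb, an endothelin receptor gene, had 1.62 FPKM in the library labelled IL-10 KO, against 15.4 FPKM in C57BL/6J wild type. Bmp5, which encodes a BMP ligand, had 27.2 FPKM against 159.8 FPKM in the same pair, and it is one of the markers of PDGFRA-high subepithelial fibroblasts. Of the 7 markers of those cells, 6 were at least 2-fold lower and 0 higher in the library labelled IL-10 KO (summed FPKM 116 against 414 in C57BL/6J wild type). In the library labelled Rag2 KO 2 were lower and 0 higher (221 against 386 in BALB/c wild type). Smooth muscle markers were lower as well, with 7 of 8 past 2-fold in the first pair (382 against 893) and 5 of 8 in the second (486 against 988). Of all genes compared, 3.82% were at least 2-fold lower in the first pair and 2.03% in the second. Blood endothelial markers had 0 of 8 past 2-fold in either pair, with sums of 156 against 138 and 192 against 136 FPKM. Other lists also had median log2 ratios below 0 in the IL-10 and Rag2 comparisons. These medians were -0.63 and -0.46 for pericytes, -0.60 and -0.66 for lymphatic endothelium, and -0.70 and -0.90 for interstitial cells of Cajal. Over all genes compared the medians were -0.0018 and -0.0041. None of these markers was at 0, and their part in the Igfbp3 values was not tested.

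Igfbp4 encodes a binding protein that in most settings keeps IGF from its receptor. It had 1685 FPKM in the library labelled IL-10 KO, against 770.2 FPKM in C57BL/6J wild type. It had 1398 FPKM in the library labelled Rag2 KO, against 736 FPKM in BALB/c wild type. The libraries of each kind lay close together, with the labelled knockouts above both wild types. The log2 ratios were 1.13 and 0.93, the second under 2-fold, with counting intervals of 0.022 on either side in both. The first ratio was 0.99 when FPKM were rescaled to a fixed sum without small RNA rows, which takes it just under 2-fold. By level Igfbp4 held rank 24 in the library labelled IL-10 KO, against rank 63 in C57BL/6J wild type, and rank 32 in the library labelled Rag2 KO, against rank 62 in BALB/c wild type.

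The nearest profiles to Igfbp4 were those of Tnfrsf14, Gpr133 and Has1, at distances of 0.034, 0.054 and 0.085. Has1, a hyaluronan synthase gene, had 1387 FPKM in the library labelled IL-10 KO, against 599.7 FPKM in C57BL/6J wild type. The BALB/c pair had 1150.5 FPKM in the library labelled Rag2 KO, against 621 FPKM in BALB/c wild type. Nearest to Igf1 were Skap2, Apobr and Man2a1, at 0.031, 0.098 and 0.17. Skap2, which encodes an adaptor protein, had 23.0 and 14.0 FPKM in the libraries labelled IL-10 KO and Rag2 KO, against 8.23 and 7.00 FPKM in their wild types. With 4 libraries and 8830 candidates, near profiles only describe these data.

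**Figure D2:**
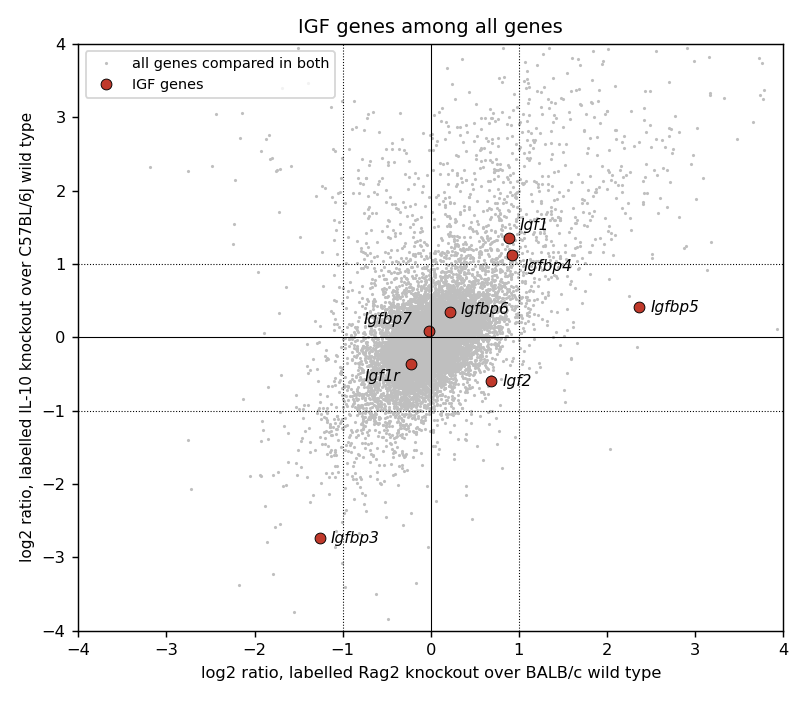
Log2 ratio of the library labelled Rag2 KO over BALB/c wild type (x axis) and of the library labelled IL-10 KO over C57BL/6J wild type (y axis) for 12048 genes compared in both, of which 65 lie outside the axes. Igfbp3 lies far down on the left (-1.26 and -2.73), Igfbp5 far to the right (2.37 and 0.42), and Igf2 in the lower right quadrant.

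Igfbp5 encodes a binding protein that also attaches to extracellular matrix. It had 247 FPKM in the library labelled IL-10 KO, against 185 FPKM in C57BL/6J wild type. It had 689 FPKM in the library labelled Rag2 KO, against 133 FPKM in BALB/c wild type. The library labelled Rag2 KO alone stood apart, and the other 3 lay between 133 and 247 FPKM. The log2 ratio was 2.37 for Rag2, rank 102 from the highest of 12336 genes, and 0.42 for IL-10, with counting intervals of 0.035 and 0.039 on either side. The IL-10 ratio minus the Rag2 ratio was -1.95, and these comparisons share no library. Against C57BL/6J wild type in place of BALB/c wild type, the Rag2 ratio was 1.89.

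Profiles nearest to Igfbp5 were those of Alpl, Sdc1 and Cxcl13, at larger distances of 0.49, 0.57 and 0.60. Alpl, a tissue-nonspecific alkaline phosphatase gene, had 129 FPKM in the library labelled Rag2 KO, against 21.9 FPKM in BALB/c wild type. Cxcl13, which encodes a chemokine for B cells, had 223 FPKM against 73.1 FPKM in the same pair. Adventitial fibroblast markers also summed higher there, at 4455 FPKM against 1238 FPKM, although only 2 of the 7 found (of 8 listed) were past 2-fold. These were Ly6a, with 2894 FPKM against 475 FPKM, and Ly6c1, with 882 FPKM against 141 FPKM. The rest had log2 ratios between -0.13 (Mfap5) and 0.89 (Cd81). The sum of adventitial markers in the library labelled IL-10 KO was 3496 FPKM, against 1186 FPKM in C57BL/6J wild type, with 4 of 7 past 2-fold. All 8 epithelial markers were at least 2-fold higher in both libraries labelled as knockouts (summed FPKM 275 against 67.8, and 112 against 20.0). None of these markers was at 0, and their part in the Igfbp5 and Igfbp4 values was not tested.

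Igfbp6 encodes a binding protein with a preference for IGF-II. It had 314 FPKM in the library labelled IL-10 KO, against 247 FPKM in C57BL/6J wild type. For BALB/c the values were 182 FPKM in the library labelled Rag2 KO, against 157 FPKM in BALB/c wild type. The strains stood further apart than the libraries within a strain: both C57BL/6J libraries were above both BALB/c libraries, which also differ from them in Xist as given above. The log2 ratio of BALB/c wild type over C57BL/6J wild type was -0.65, and those of the IL-10 and Rag2 comparisons were 0.35 and 0.21. Against the other strain's wild type the IL-10 ratio was 0.997 and the Rag2 ratio -0.44, so the size of the first and the direction of the second depend on the library set against them.

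Igfbp7 encodes a secreted protein that binds IGFs only weakly. It had 2002 FPKM in the library labelled IL-10 KO, against 1889.7 FPKM in C57BL/6J wild type. The BALB/c pair had 1941 FPKM in the library labelled Rag2 KO, against 1968 FPKM in BALB/c wild type. The log2 ratios were 0.08 and -0.02, and the range over all 4 libraries was 0.084. These directions are not stable, since the first was -0.05 after rescaling without small RNA rows and the second 0.04 against C57BL/6J wild type. Polr2b and Gm34648 overlap Igfbp7 on the other strand, and here too it is not known whether reads were kept apart. Igfbp2, whose product is the second most abundant binding protein in blood, was at the other end. It was listed at 0 in both libraries labelled as knockouts, at 0.204 FPKM in C57BL/6J wild type and at 0.269 FPKM in BALB/c wild type, about 2 and 3 fragments. A count of 0 allows up to 0.325 FPKM in the library labelled IL-10 KO and 0.282 FPKM in the library labelled Rag2 KO, so no difference in Igfbp2 was detectable at this depth.

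Members of the family that lie side by side on a chromosome had very different levels. Igfbp2 (chromosome 1, 72824480 to 72852474, plus strand) ends 5590 bp before Igfbp5 (72858065 to 72874865, minus strand), with 0 RefSeq genes between them. The first had 0.269 FPKM or less where the second had between 133 and 689 FPKM. Igfbp1, a binding protein gene of the liver that is no member here, lies on chromosome 11 (7197787 to 7202546, plus strand), 3539 bp from Igfbp3 (7206086 to 7215498, minus strand). It had 0.0907 FPKM or less in every library. The other members lie on chromosome 10 (Igf1, 87858265 to 87937047), chromosome 7 (Igf2, 142650768 to 142666816, and Igf1r, 67952257 to 68233668), chromosome 11 (Igfbp4, 99040005 to 99052655), chromosome 15 (Igfbp6, 102144186 to 102149512) and chromosome 5 (Igfbp7, 77349240 to 77408045).

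FPKM are per length, so the binding protein genes can be added within a library. The sum of Igfbp2 to Igfbp7 was 4375 FPKM in the library labelled IL-10 KO, against 3942 FPKM in C57BL/6J wild type. It was 4524 FPKM in the library labelled Rag2 KO, against 3748 FPKM in BALB/c wild type. Without Igfbp7, which is about as abundant everywhere, the sum was 2373 FPKM in the library labelled IL-10 KO, against 2052 FPKM in C57BL/6J wild type. In BALB/c that sum was 2583 FPKM in the library labelled Rag2 KO, against 1779.8 FPKM in BALB/c wild type. Igfbp3 held 2.90% of the sum in the library labelled IL-10 KO, against 21.6% in C57BL/6J wild type. Within BALB/c it held 6.93% in the library labelled Rag2 KO, against 20.1% in BALB/c wild type.

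Igfbp4 held 38.5% of the sum in the library labelled IL-10 KO, against 19.5% in C57BL/6J wild type. Within BALB/c it held 30.9% in the library labelled Rag2 KO, against 19.6% in BALB/c wild type. There were 13.3 FPKM of Igfbp4 per FPKM of Igfbp3 in the library labelled IL-10 KO, against 0.906 in C57BL/6J wild type. The same quotient was 4.46 in the library labelled Rag2 KO, against 0.976 in BALB/c wild type, so only the wild types had similar amounts of both transcripts. The share of Igfbp5 was 15.2% in the library labelled Rag2 KO, against 3.54% in BALB/c wild type. Between the C57BL/6J libraries it differed less, at 5.65% in the library labelled IL-10 KO, against 4.69% in C57BL/6J wild type. For each 100 FPKM of Igfbp2 to Igfbp6, without the weak binder Igfbp7, there were 1.87 FPKM of ligand transcripts in the library labelled IL-10 KO, against 1.28 in C57BL/6J wild type. In BALB/c there were 1.51 in the library labelled Rag2 KO, against 1.21 in wild type.

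**Figure D3:**
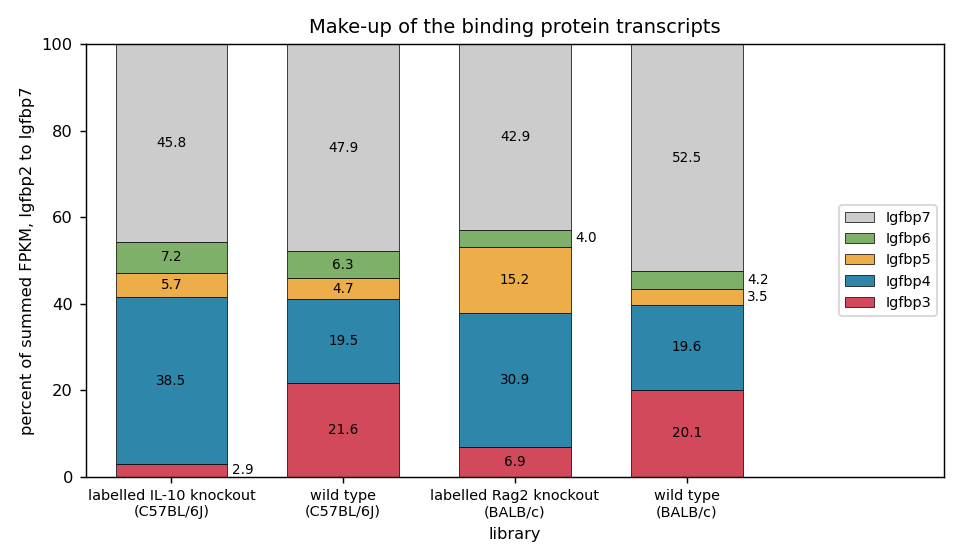
Share of each binding protein gene (y axis, percent) in the summed FPKM of Igfbp2 to Igfbp7 for each library (x axis), with Igfbp2 too small to draw. The Igfbp3 share is 2.90% and 6.93% in the libraries labelled IL-10 KO and Rag2 KO, against 21.6% and 20.1% in their wild types, and the widest Igfbp5 band belongs to the library labelled Rag2 KO.

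Counted against the background, 8 of the 9 members passed the filter on low values in each comparison, all but Igfbp2. Of these, 2 were at least 2-fold higher in the library labelled IL-10 KO, Igf1 and Igfbp4, where 10.1% of all genes compared were higher and 14% differed either way. Igfbp3 was the 1 member at least 2-fold lower, where 3.82% of all genes were. For the library labelled Rag2 KO 1 was higher, Igfbp5 (4.42% of all genes), and 1 lower, Igfbp3 (2.03%), where 6.45% differed either way. Median log2 ratios of the 8 were 0.21 and 0.45, against medians of -0.0018 and -0.0041 over all genes compared. Since the members were chosen with these values known, nothing is read from those counts.

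Between the wild types 0 of the 8 members were 2-fold apart in either direction, where 1.81% of all genes were higher and 2.17% lower in BALB/c, 3.99% together. The ratios of BALB/c wild type over C57BL/6J wild type lay between -0.65 (Igfbp6) and 0.30 (Igf1r), with a median of -0.18. This comparison shares a library with each of the others.

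**Figure D4:**
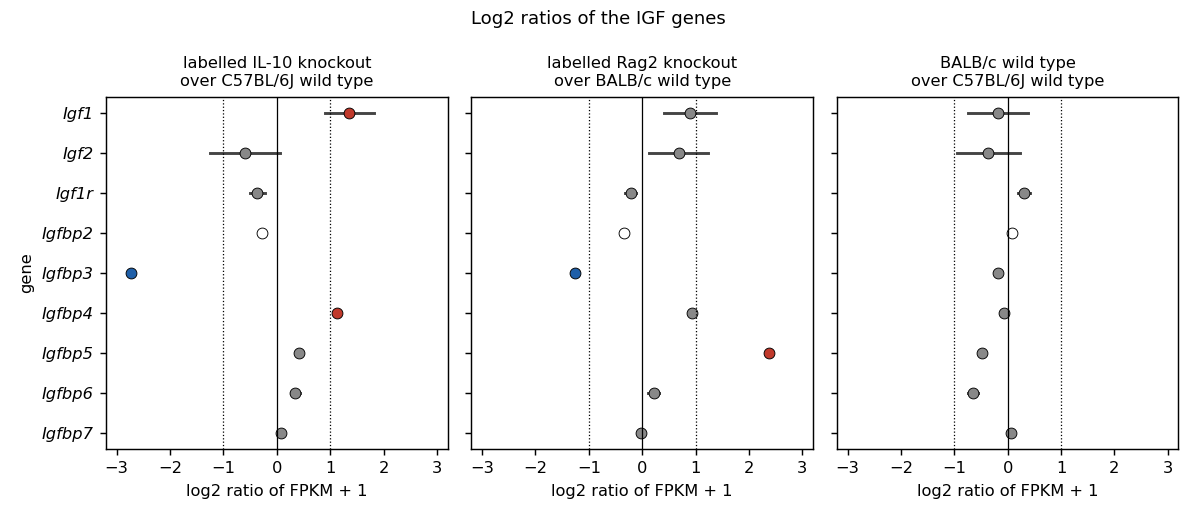
Log2 ratios of FPKM plus 1 (x axis) of the 9 genes (y axis) in the 3 comparisons, with red and blue for at least 2-fold higher and lower, open circles for Igfbp2, which did not pass the filter, and bars for the 95% counting interval with the shortest transcript. Igfbp3 is past the dotted 2-fold line in both comparisons of libraries labelled as knockouts, and all points lie between the lines in the comparison of wild types.

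The rest of the pathway was looked at through 70 other genes in 5 groups. In the IL-10 comparison 60 passed the filter, with 5 at least 2-fold higher, 4 lower and a median log2 ratio of -0.10. In the Rag2 comparison 58 passed, with 6 higher, 0 lower and a median of -0.10. Between the wild types 57 passed, with 1 higher and 4 lower in BALB/c. The genes were listed with earlier results known, and the background shares are those given above.

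Receptors and proximal signalling genes stayed almost entirely within 2-fold. Of 28 that passed in the IL-10 comparison 0 were 2-fold apart, where 14% of all genes compared were. Of 27 in the Rag2 comparison 1 was, where 6.45% of all genes compared were. This was Insrr, an orphan relative of the insulin receptor gene. It had 3.01 FPKM in the library labelled Rag2 KO, against 0.471 FPKM in BALB/c wild type (log2 ratio 1.45). In the IL-10 pair it was also higher, at 1.58 FPKM against 0.327 FPKM in C57BL/6J wild type. That log2 ratio of 0.96 was just under 2-fold, and at such low levels it depends on the pseudocount. Igf2r, whose product clears IGF-II, had between 24.2 and 27.8 FPKM in all 4 libraries, and Insr, the insulin receptor gene, between 7.64 and 8.24 FPKM. Irs1 and Irs2, which encode adaptors of the insulin receptor and of the Igf1r product, had log2 ratios of -0.73 and -0.78 for IL-10. For Rag2 their ratios were -0.72 and -0.72, and all of these are under 2-fold. Irs2 had 81.2 FPKM in the library labelled IL-10 KO, against 140.1 FPKM in C57BL/6J wild type. For BALB/c the values were 79.6 FPKM in the library labelled Rag2 KO, against 132 FPKM in BALB/c wild type. Irs1, Irs2, Igf2r and Insr were named after their values were seen.

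In the growth hormone arm 0 of 6 genes were 2-fold apart in either comparison, with medians of -0.11 and -0.52. Stat5a, which encodes a transcription factor activated by growth hormone, had 12.8 FPKM in the library labelled IL-10 KO, against 6.45 FPKM in C57BL/6J wild type (log2 ratio 0.89). It had 8.14 FPKM in the library labelled Rag2 KO, against 15.4 FPKM in BALB/c wild type (-0.84), and the ratio of BALB/c wild type over C57BL/6J wild type was 1.13. Jak2, the kinase of the growth hormone receptor, had ratios of 0.97 for IL-10 and 0.33 for Rag2. Both were named after their values were seen. Igfals, the partner of IGF carriers in blood, had 0.188 FPKM or less. The imprinted network and Igf2 RNA binding group had 1 of 7 lower in the IL-10 comparison and 0 of 7 past 2-fold in the Rag2 comparison. Mest, an imprinted gene, had 2.36 FPKM in the library labelled IL-10 KO, against 7.18 FPKM in C57BL/6J wild type. H19, the imprinted neighbour of Igf2, had 0.148 FPKM or less in every library.

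Enzymes and inhibitors that act on binding proteins had genes past 2-fold in both comparisons. In the IL-10 comparison 4 of 11 were higher and 1 lower, where 10.1% and 3.82% of all genes compared were. In the Rag2 comparison 4 of 10 were higher and 0 lower, where 4.42% and 2.03% of all genes compared were. The list was made with these data known, so nothing is read from the counts. Mmp3, stromelysin-1, which cuts human IGFBP-3, had 111 FPKM in the library labelled IL-10 KO, against 18.96 FPKM in C57BL/6J wild type (log2 ratio 2.49). It had 100.2 FPKM in the library labelled Rag2 KO, against 11.9 FPKM in BALB/c wild type (2.97). The complement proteases C1s and C1ra were also higher in both, and human C1s cuts IGFBP-5. C1s had 1259 FPKM in the library labelled IL-10 KO, against 583 FPKM in C57BL/6J wild type. The BALB/c pair had 1010.2 FPKM in the library labelled Rag2 KO, against 365 FPKM in BALB/c wild type, a log2 ratio of 1.46 that was 0.79 against C57BL/6J wild type.

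Htra1, a secreted serine protease gene, went the other way in the IL-10 comparison, with 127 FPKM in the library labelled IL-10 KO, against 359 FPKM in C57BL/6J wild type (log2 ratio -1.49), and its ratio in the Rag2 comparison was -0.38. Pappa, which encodes the protease best known for cutting IGFBP-4, had 3.49 FPKM in the library labelled IL-10 KO, against 6.46 FPKM in C57BL/6J wild type. It had 8.10 FPKM in the library labelled Rag2 KO, against 10.3 FPKM in BALB/c wild type. Its log2 ratios of -0.73 and -0.31 were under 2-fold, and it was named after its values were seen. The log2 ratio of BALB/c wild type over C57BL/6J wild type was 0.60 for Pappa. The library labelled Rag2 KO lay above C57BL/6J wild type, so the direction of the Rag2 ratio depends on the wild type used. Stc2, which encodes an inhibitor of that protease, had 10.7 FPKM in the library labelled IL-10 KO, against 20.5 FPKM in C57BL/6J wild type (-0.88). It had 17.6 FPKM in the library labelled Rag2 KO, against 5.44 FPKM in BALB/c wild type (1.53), but the log2 ratio of BALB/c wild type over C57BL/6J wild type was itself -1.74, and against C57BL/6J wild type the Rag2 ratio was -0.21.

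Other proteins with an IGF binding protein domain, most of them matricellular CCN proteins, had 1 of 8 higher and 2 lower in the IL-10 comparison, and 1 of 8 higher and 0 lower in the Rag2 comparison. Wisp2, also called CCN5, had 45.6 FPKM in the library labelled IL-10 KO, against 7.15 FPKM in C57BL/6J wild type (2.51). It had 12.9 FPKM in the library labelled Rag2 KO, against 1.09 FPKM in BALB/c wild type (2.73). The ratio of BALB/c wild type over C57BL/6J wild type was -1.97, and against C57BL/6J wild type the Rag2 ratio was 0.77, under 2-fold. Ctgf, also called CCN2, had 105 FPKM in the library labelled IL-10 KO, against 244 FPKM in C57BL/6J wild type (-1.21). Kazald1 had 4.57 FPKM against 13.0 FPKM in the same pair (-1.33), but its log2 ratio of BALB/c wild type over C57BL/6J wild type was -1.02 as well.

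**Figure D5:**
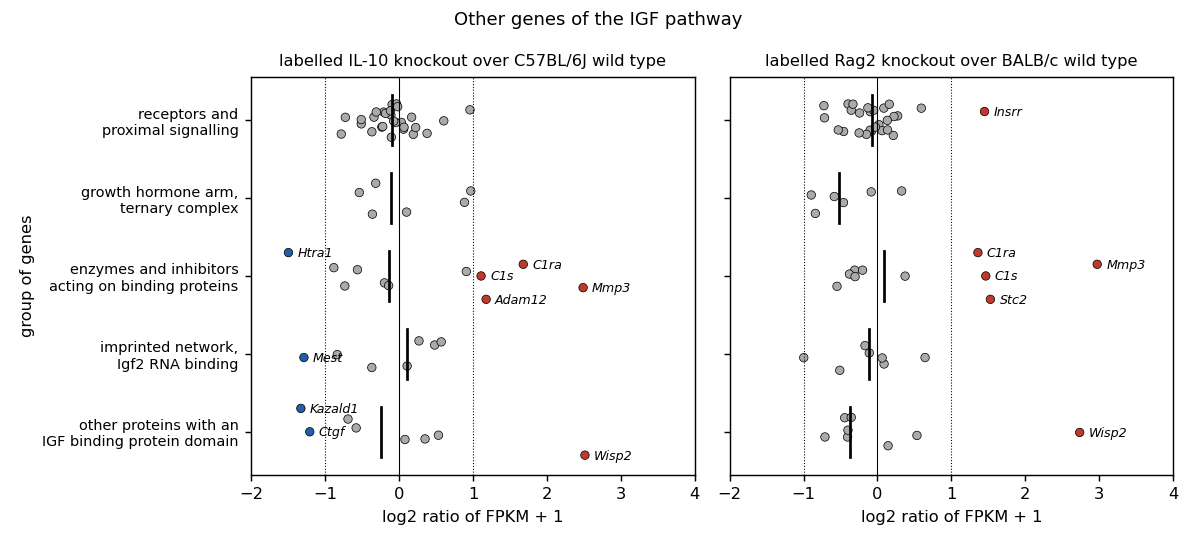
Log2 ratios of FPKM plus 1 (x axis) of pathway genes that passed the filter, by group (y axis), in the 2 comparisons of libraries labelled as knockouts, with a point per gene, vertical bars for group medians, and names for genes past the dotted 2-fold lines. Mmp3 and Wisp2 stand farthest to the right in both panels, and the receptor and signalling genes gather around 0.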

How the data were processed

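The authors deposited FPKM per gene symbol for each library. Tools listed in the submitters' processing notes are Cuffdiff 2.2.1, TopHat2 2.1.1, SAMtools 0.1.18 and Bowtie2 2.2.8, with build mm10. Which annotation, strand setting and scaling between libraries Cuffdiff was run with is not given in the sources used here. The labels' protocols name a miRNeasy extraction and a TruSeq stranded mRNA kit.

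The members, the pathway and marker lists and all settings were chosen with earlier results of these data known. Ratios are differences in log2 of FPKM plus a pseudocount of 1, over genes with at least 1 FPKM in either library, computed with Python 3.11.15, pandas 2.3.3 and numpy 2.4.6. With 1 library per group no test was run. Depth was estimated from single-transcript genes of at least 1000 nt (GENCODE M21): with a length offset of 210 nt, between 98 and 118 genes per library, of 149 to 164 used, lay within 2% of 1 fragment. Intervals are normal approximations on the log scale and cover counting error only. The calculation of ratios and counts was checked on simulated libraries with counting error only, which says nothing about differences between animals. Named genes are the 9 members, up to 3 pathway genes past 2-fold per group and knockout comparison with the largest ratios, the 3 nearest profiles of each member with a range of at least 1 on the log2 scale, the 2 most abundant markers of each list and the sort markers. Not all of them are printed. Sequences and coordinates are from RefSeq on GRCm38.p6. Protein sequences are not used here. Alternatives covered the pseudocount, the filter, scaling, the fold threshold and the wild type set against a knockout.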

Additional observations from a re-analysis of the deposited data

Results flagged for a closer look

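Among genes that passed the filter in both comparisons, 2 of 8 members and 16 of 58 pathway genes had log2 ratios of opposite sign in the comparisons of the libraries labelled IL-10 KO and Rag2 KO with their wild types. With 1 library per group the difference was not tested for any of them, and many of the ratios are close to 0. The share of opposite signs among all 12048 genes compared in both was not computed, so nothing is read from these counts. For Igf2 the log2 ratio was -0.59 for IL-10 and 0.69 for Rag2, a difference of -1.28. Igfbp7 had 0.08 and -0.02, a difference of 0.10, and the second ratio is smaller than its counting interval of 0.030 on either side.

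Of the pathway genes, Stc2 had -0.88 and 1.53, a difference of -2.41, and Stat5a had 0.89 and -0.84, a difference of 1.73. For both, the wild types differed from each other by at least 2-fold. The IL-10 ratio was the lower one for Pik3r1 (difference -0.78), Pik3r2 (-0.73), Eif4ebp1 (-0.61), Shc1 (-0.45), Rps6kb1 (-0.35), Akt1 (-0.31) and Mtor (-0.24). It was the higher one for Meg3 (0.78), Foxo1 (0.50), Wisp1 (0.48), Igf2r (0.27), Stat5b (0.19), Insr (0.16) and Grb10 (0.13).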

How the results depend on the processing

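Of 136 ratios of single members recomputed under alternatives that can change them (pseudocount, scaling, centring and the other wild type), 101 stayed within the counting interval of the reported ratio, 35 went beyond it and 0 of those past 2-fold changed direction. Ratios under 2-fold did: Igfbp7 in both knockout comparisons (to -0.05 and 0.04), and Igf1r (0.08) and Igfbp6 (-0.44) in the Rag2 comparison. Rescaling FPKM to a fixed sum without small RNA rows moved the median of all genes to -0.12 for IL-10 and to -0.14 for Rag2. Members at least 2-fold higher in the IL-10 comparison then numbered 1, and the medians over members were 0.077 and 0.33. At 1.5-fold, 2 members were lower in the IL-10 comparison, 4 higher in the Rag2 comparison and 1 lower between the wild types. At 4-fold 0 were higher in the IL-10 comparison and 0 lower in the Rag2 comparison. With no filter, which adds Igfbp2, the medians were 0.084 and 0.21, and a pseudocount of 5 gave 0.37 in the Rag2 comparison. Using the wild type of the other strain, chosen after seeing the data, the medians were 0.46 for IL-10 and 0.21 for Rag2. The IL-10 ratios of Igf2, Igf1r and Igfbp5 were then -0.23, -0.67 and 0.89, and the Rag2 ratio of Igf2 was 0.33. Of pathway genes 1 was then lower in the Rag2 comparison, the Rag2 ratio of Stc2 was -0.21, and the IL-10 ratios of Stc2 and Kazald1 were 0.86 and -0.31.

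A pseudocount of 0.1 gave 9 higher pathway genes in the IL-10 comparison, 1 lower in the Rag2 comparison and 3 higher between the wild types. A pseudocount of 5 gave 2 lower in the IL-10 comparison, and 0 higher and 1 lower between the wild types. The causes were not tested. Without Igfbp7 in the sum, the share of Igfbp3 was 5.36%, 41.4%, 12.1% and 42.4% in the library labelled IL-10 KO, C57BL/6J wild type, the library labelled Rag2 KO and BALB/c wild type. In the same order Igfbp4 held 71.0%, 37.5%, 54.1% and 41.3%, and Igfbp5 10.4%, 9.01%, 26.7% and 7.46%. No paired analysis was possible because each group has 1 library. Transcripts near 0.2 FPKM rest on about 3 fragments, so differences at that level were not detectable.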
